A study of Mus musculus with 32 samples.

Results

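Multipotent progenitors (MPPs) sit just below the haematopoietic stem cell (HSC) and give rise to all blood lineages. JAK2 is the kinase that carries signals from the receptors for erythropoietin, thrombopoietin and several other cytokines to STAT transcription factors, STAT5 among them. The V617F change makes the kinase active without cytokine and drives myeloproliferative neoplasms, in which red cells, platelets or granulocytes are overproduced.

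RNA-seq libraries of sorted bone marrow MPPs from Mx1-Jak2V617F mice (2 libraries) were set against MPPs from Mx1 control mice (2 libraries). They were chosen by their titles, as the 2 Jak2V617F MPP libraries that do not also carry the Jarid2 knockout and the 2 control MPP libraries, and make up 4 of the 24 RNA libraries of the study. Per the labels, all 4 came from C57BL/6 mice with the Mx1-CRE driver, with an age of 10 weeks given together with 2 months after pIpC, the double-stranded RNA that induces Mx1. The protocol text names mice of 8 weeks and 3 replicates instead, and how these ages and times go together is not stated. The Jak2V617F mice carry Mx1-Jak2V617F and the controls are labelled wild type apart from the driver. Mx1-CRE acts in many cell types that respond to interferon, not only in blood, and the labels do not give the number of mutant alleles or the species of the Jak2 transgene. The sort gate for MPPs was Lin-, cKit+, Sca1+, CD150- and CD48-. Per the protocol, each library was made from marrow pooled over male and female mice. The tests below thus measure the spread between libraries of pooled marrow, not between single mice. The series text lists a Jarid2 knockout group on the Mx1 driver where the sample labels give Jak2V617F, and the sample labels were followed here. The spread of each gene was estimated over all 12 Mx1 libraries, which also include HSCs and Jak2V617F mice without Jarid2, and HSC libraries of the same genotypes are used below for comparison.

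The 4 libraries did not hold like mixtures of RNA, and their makeup bears on every result. Depth was 11938876 and 10765232 counts in the Jak2V617F libraries, against 20724168 and 9273253 counts in the control libraries. Genes of heart muscle (25 genes, such as Ttn and Myh6) took 9.06% and 8.21% of counts in the Jak2V617F libraries, against 0.689% and 10.5% in the controls. Both Jak2V617F libraries and control replicate 2 were thus high in heart RNA, and control replicate 1 was low. The summed level of 41 genes expressed across blood cells (pan-blood genes, such as Ptprc and Coro1a) was 5457 and 6039 CPM (counts scaled to the library total) in the Jak2V617F libraries, against 17986 and 4470 CPM in the controls. Even at the high heart level, the Jak2V617F libraries held more pan-blood RNA than control replicate 2, and all 24 heart genes tested were lower in both of them than in that control, beside 32.6% of all genes.

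Defining markers of the gate went against the MPP label in part. Ly6a, the gene of Sca-1, was at 44.7 and 44.3 CPM in the Jak2V617F libraries, against 6.71 and 63.4 CPM in the controls. Its level was thus lowest in the library with the least heart RNA. Cd48, whose product the gate excludes, was at 41.6 and 60.7 CPM in the Jak2V617F libraries, against 127 and 37.4 CPM in the controls. Kit, the stem cell factor receptor that the gate requires, was at 184 and 150 CPM in the Jak2V617F libraries, against 514 and 159 CPM in the controls. The granulocyte enzyme gene Mpo, which is strong in committed myeloid progenitors, was at 3391 and 4447 CPM in the Jak2V617F libraries, against 16446 and 3586 CPM in the controls. The libraries are therefore called here by their labels, and no result below is a statement about a pure MPP population.

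**Figure D1:**
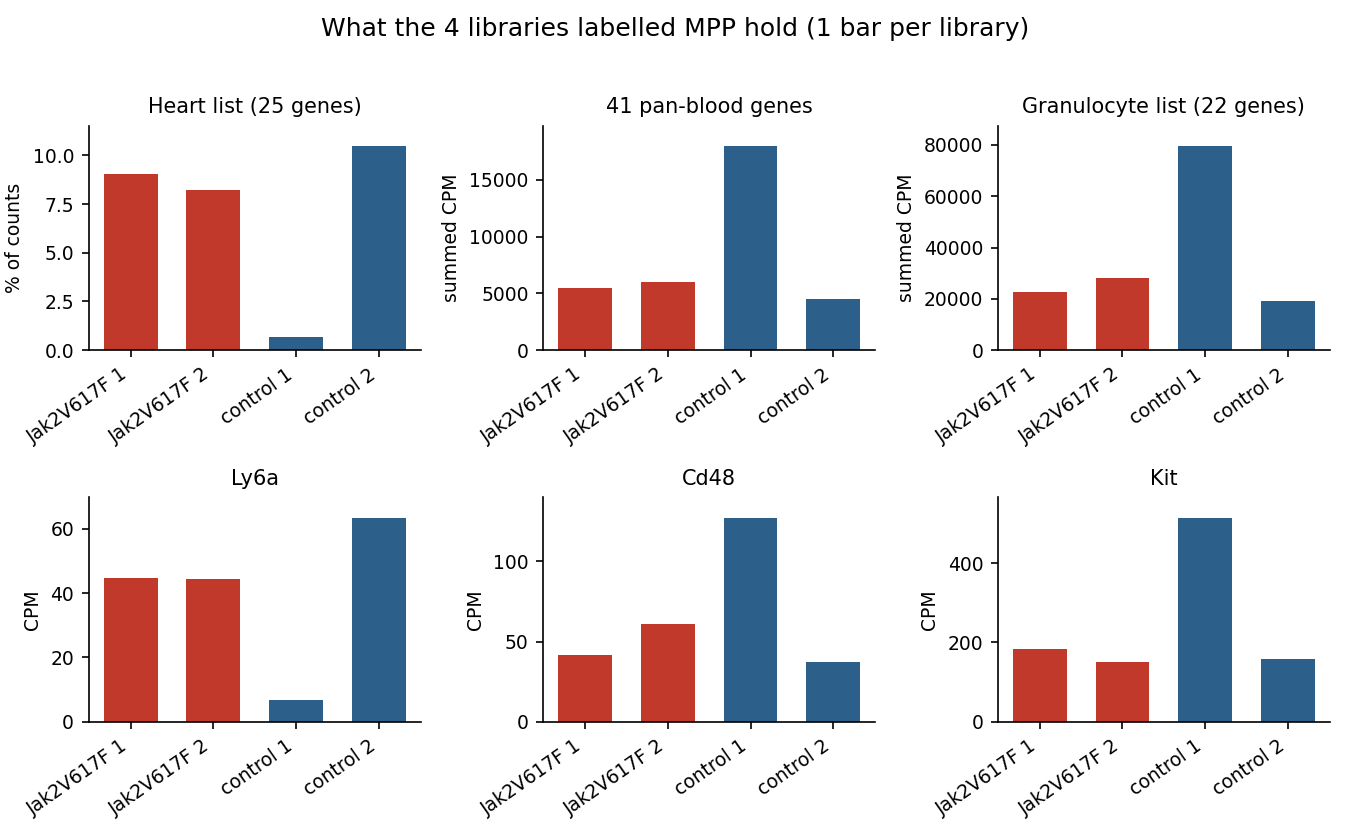
Each bar is 1 library labelled MPP, Jak2V617F in red and control in blue; the y axes give the percent of counts in the heart list, the summed CPM of 2 gene lists, and the CPM of 3 sort gate genes. Control 1 stands apart from the other libraries in all 6 panels.

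Because of this makeup, each gene was compared in 2 ways. The first fit compared the genotypes as labelled. The second added a term for libraries with more than 4% of counts in the heart list, and the fold changes below come from it unless stated. At the high level there was 1 control library, so this second comparison rests on control replicate 2 together with a heart term that is estimated over all groups. As a further description, CPM values were rescaled so that the 41 pan-blood genes had the same typical level in every library, which gives each gene's level per unit of blood RNA. In bulk RNA, fewer cells of a type and less RNA per cell cannot be told apart. An exact permutation test of 2 against 2 libraries cannot give p below 0.333, so single values are shown as measured.

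In edgeR's quasi-likelihood test with Benjamini-Hochberg adjustment, 0 of 19616 genes passed an adjusted p of 0.05 in the comparison as labelled (264 had an unadjusted p under 0.05, 189 or 0.963% higher and 75 or 0.382% lower), and DESeq2 and limma-voom each called 0. Within the heart RNA level, 0 genes passed as well. There, 448 genes (2.28%) were higher in Jak2V617F at an unadjusted p under 0.05 and 137 genes (0.698%) were lower, and the lowest adjusted p was 0.653. DESeq2 called 0 genes in that design, and limma-voom called 2, Trim10 and Tcrg-C1, both higher in Jak2V617F. The median log2 fold change over all genes was 0.02 within the heart level and -0.02 as labelled. Counts were simulated with the layout of these libraries, from a model with a heart term shared by all groups. Only genes with a mean log2 CPM of at least 2 were changed. In these counts, the comparison as labelled found 0% of genes given a log2 change of 3. The fit with the heart term, whose form the simulation shares, found 78% of them, and 1% of genes given a log2 change of 1. These shares may not hold where the heart term differs between groups. A count of 0 thus does not show that no gene changed. None of the genes below passed the main tests, and all are given as measured values.

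Genes of red cell development, such as the master factor Gata1, the carbonic anhydrases Car1 and Car2 and the membrane protein gene Rhag, had the highest median log2 fold change of the 32 gene lists within the heart level. Of 20 red cell genes, 19 had a log2 fold change above 0 within the heart level, against 51.5% of all genes tested, and the list's median was 1.21 against 0.02 for all genes. In edgeR 0 of the 20 passed and 4 were higher at an unadjusted p under 0.05 (Gata1, Car2, Hemgn and Klf1), beside 2.28% of all genes. Both Jak2V617F libraries exceeded control replicate 2 in 17 of the 20 genes, beside 38.5% of all genes. This was not particular to red cell genes, as both libraries held more pan-blood RNA than that control. It also held for 24 of 24 mitosis, 22 of 24 S phase and 15 of 22 granulocyte and monocyte genes. For megakaryocyte and platelet genes it held for 5 of 20, and for stem cell genes for 7 of 30. As labelled, without the heart term, the red cell list's median was 0.31. The direction thus shows mainly when libraries with like heart RNA, or levels per unit of blood RNA, are compared.

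To show what the promoters hold, the windows of 3 red cell genes (Rhag, Ermap and Klf1) are printed with that of Trim10, which is not in the red cell list and has a large fold change (below). GATA factors such as GATA1 bind short GATA motifs, so both strands were searched for AGATAA or AGATAG and for the same words with a T as first letter. The sequences are the RefSeq windows of build GRCm38.p6, from 250 bases before to 50 bases after the transcription start, 5′ to 3′ on the gene's strand, with the motif in capitals.
Trim10 (chr17:36869324-36869623, plus strand): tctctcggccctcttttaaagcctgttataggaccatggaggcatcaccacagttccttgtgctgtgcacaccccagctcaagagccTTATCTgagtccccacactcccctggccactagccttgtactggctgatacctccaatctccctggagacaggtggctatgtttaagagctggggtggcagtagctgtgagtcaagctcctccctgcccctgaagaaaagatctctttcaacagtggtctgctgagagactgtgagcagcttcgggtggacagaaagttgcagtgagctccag
Rhag (chr17:40810899-40811198, plus strand): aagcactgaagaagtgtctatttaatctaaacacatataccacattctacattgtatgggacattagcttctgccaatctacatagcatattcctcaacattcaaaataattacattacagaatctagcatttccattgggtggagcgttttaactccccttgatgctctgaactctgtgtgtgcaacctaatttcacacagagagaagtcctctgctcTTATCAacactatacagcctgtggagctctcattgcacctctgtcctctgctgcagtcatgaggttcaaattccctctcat
Ermap (chr4:119189946-119190245, minus strand): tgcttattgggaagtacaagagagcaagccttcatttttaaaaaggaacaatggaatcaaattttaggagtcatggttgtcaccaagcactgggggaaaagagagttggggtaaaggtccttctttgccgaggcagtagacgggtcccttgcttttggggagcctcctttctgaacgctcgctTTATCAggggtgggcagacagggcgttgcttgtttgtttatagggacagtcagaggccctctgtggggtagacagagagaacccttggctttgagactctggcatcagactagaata
Klf1 (chr8:84901732-84902031, plus strand): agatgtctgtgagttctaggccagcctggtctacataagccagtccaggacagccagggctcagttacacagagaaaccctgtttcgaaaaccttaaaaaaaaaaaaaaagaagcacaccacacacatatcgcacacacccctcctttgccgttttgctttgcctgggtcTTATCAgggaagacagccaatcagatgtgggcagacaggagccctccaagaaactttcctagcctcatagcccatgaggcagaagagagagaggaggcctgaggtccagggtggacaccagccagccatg
Each of the 4 windows holds 1 match, which begins at base -163 relative to the start in Trim10, -31 in Rhag, -67 in Ermap and -80 in Klf1. Windows were listed for 16 of the 20 red cell genes, and 11 of these genes had at least 1 match (12 of 21 windows), where 29.8% of all 32851 windows have one. The Gata1 window itself held none, nor did those of Tfrc, Aqp1, Hbb-bt and Tspo2. The 4 printed windows all hold a match and so do not stand for the whole list. Windows of a gene can overlap, and 2 windows of Sphk1 share the same GATA match. The STAT motif TTCNNNGAA was found in 2 of the 21 windows (8.3% of all windows), both of Sphk1 and at the same site. CCNCNCCC, a motif of KLF factors, was found in 16 of the 21 (49.5% of all windows). A match is a run of letters in a window and not a measured binding site.

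The red cell list holds Gata1 and Klf1, transcription factors of the red cell programme. Gata1 was at 109 and 108 CPM in the Jak2V617F libraries, against 179 and 39.7 CPM in the controls. The 2 Jak2V617F libraries agreed closely and lay between the controls, well above the control with like heart RNA. Within the heart level the log2 fold change of Gata1 was 1.33 (SE 0.34, edgeR unadjusted p = 0.00035, adjusted p = 1). Per unit of blood RNA the groups did not overlap, at 174 and 155 rescaled CPM in the Jak2V617F libraries against 91.6 and 78.0 rescaled CPM in the controls. Klf1, the factor that switches on adult beta globin, was at 13.4 and 11.8 CPM in the Jak2V617F libraries, against 15.9 and 3.34 CPM in the controls (log2 fold change 1.47, SE 0.63). Gfi1b, a repressor needed for red cells and platelets, is in the megakaryocyte and platelet list and not in the red cell list. It was at 110 and 109 CPM in the Jak2V617F libraries, against 173 and 53.3 CPM in the controls (log2 fold change 1.04, SE 0.33). Klf1 and Gfi1b thus showed the same order as Gata1, with the Jak2V617F libraries between the controls on CPM. The erythropoietin receptor gene Epor, whose product signals through JAK2, was at 9.38 and 13.2 CPM in the Jak2V617F libraries, against 14.1 and 6.04 CPM in the controls (log2 fold change 1.06, SE 0.54).

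Enzymes and membrane proteins of red cell precursors made up most of the list's RNA. Car2 was at 3633 and 3828 CPM in the Jak2V617F libraries, against 3965 and 1475 CPM in the controls, and Car1 at 1122 and 1013 CPM, against 1544 and 430 CPM. For both genes, which code for carbonic anhydrases, the Jak2V617F libraries lay between the controls, far over control replicate 2, and for Car2 they were close to control replicate 1. Rescaled to pan-blood genes, Car2 was at 5817 and 5485 in the Jak2V617F libraries, against 2033 and 2900 in the controls. Rhag, a subunit of the Rh complex of the red cell membrane, was at 148 and 131 CPM in the Jak2V617F libraries, against 154 and 45.4 CPM in the controls. Ermap, the gene of a red cell adhesion protein, was at 316 and 244 CPM in the Jak2V617F libraries, against 369 and 90.5 CPM in the controls. Add2, which links the red cell membrane to its skeleton, was at 69.9 and 63.4 CPM in the Jak2V617F libraries, against 49.6 and 18.8 CPM in the controls. Its groups did not overlap even without rescaling. Tfrc, the transferrin receptor that brings iron into the cell, likewise did not overlap, at 484 and 387 CPM in the Jak2V617F libraries against 154 and 216 CPM in the controls.

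On CPM alone, 7 of the 20 red cell genes were higher in both Jak2V617F libraries than in both controls and 0 were lower, where 16% of all genes were higher and 8.47% lower. Rescaled to pan-blood genes, 16 of the 20 were higher and 0 lower, where 19.9% of all genes were higher and 2.73% lower. The 4 that overlapped after rescaling were Aqp1, Hbb-bs, Hba-a2 and Sphk1. Aqp1, a water channel that vessels also express, was at 312 and 293 CPM in the Jak2V617F libraries, against 52.9 and 322 CPM in the controls, and so followed the heart RNA level. Globin genes were low for red cell precursors and uneven. Hbb-bt was at 55.3 and 38.6 CPM in the Jak2V617F libraries, against 6.08 and 25.7 CPM in the controls, and Hba-a2 at 16.1 and 12.4 CPM, against 4.73 and 23.1 CPM. Globin copies are near-identical, and how reads were divided among them is not given in the sources used here, so single copies are uncertain.

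**Figure D2:**
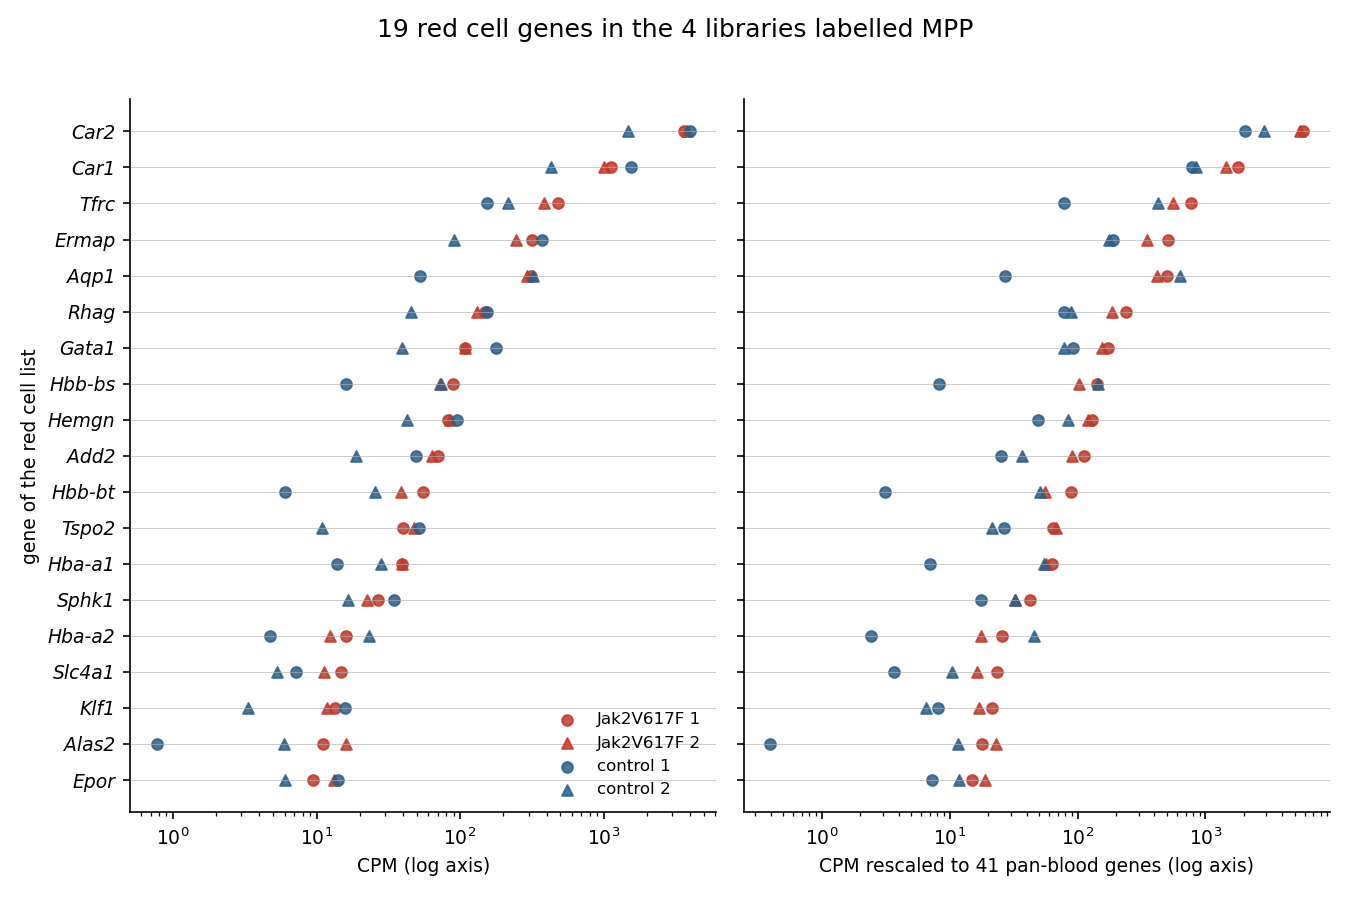
Each row is 1 of 19 of the 20 red cell genes and each point 1 library labelled MPP (Jak2V617F red, control blue, circles replicate 1, triangles replicate 2). The left x axis gives CPM and the right x axis CPM rescaled to 41 pan-blood genes, both on log axes; on the right, 15 of the 19 genes drawn have both red points above both blue points.

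Haem synthesis and iron genes leaned the same way with smaller differences. This list shares Alas2 and Tfrc with the red cell list and is not separate from it. Of 17 genes, 13 had a log2 fold change above 0 (beside 51.5% of all genes), with a median of 0.54, and 14 exceeded control replicate 2 in both Jak2V617F libraries (beside 38.5%). In edgeR 0 passed, 4 were higher at an unadjusted p under 0.05 (beside 2.28%), among them Alad, Urod and Fth1, and 1 was lower (beside 0.698%), Hmox1. Alad, which makes porphobilinogen, was at 115 and 136 CPM in the Jak2V617F libraries, against 134 and 81.1 CPM in the controls (log2 fold change 0.78, SE 0.35). Its groups overlapped on CPM. Urod, a later enzyme, did not overlap, at 125 and 107 CPM in the Jak2V617F libraries against 99.9 and 82.9 CPM in the controls (0.75, SE 0.34). Fth1, the heavy chain of the iron store ferritin, was at 1106 and 1140 CPM in the Jak2V617F libraries, against 1239 and 630 CPM in the controls (0.85, SE 0.32). Hmox1, which breaks haem down, was the opposite case, at 3.35 and 7.62 CPM in the Jak2V617F libraries and 12.6 and 11.6 CPM in the controls (log2 fold change -1.70, SE 0.81). Alas2, the first enzyme of haem synthesis in red cells, was at 11.1 and 16.2 CPM in the Jak2V617F libraries, against 0.772 and 5.93 CPM in the controls (2.11, SE 1.27). Its error was large relative to its size.

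A narrower fit called a small set of genes, some of them in the red cell list. When only the 6 Mx1 MPP libraries (Jak2V617F, Jak2V617F with Jarid2 knockout, and control) were fitted with the heart term, edgeR called 24 of 17232 genes, 23 higher (0.133%) and 1 lower (0.0058%) in Jak2V617F, on 2 residual degrees of freedom. Both Jak2V617F libraries are high in heart RNA, so this fit's heart term came only from the control and the Jarid2 knockout libraries. The knockout libraries were at 9.59% and 1.27% heart RNA, with a summed red cell list of 5978 and 29867 CPM. The fitted fold changes of red cell genes thus depend in part on that unlike pair. Of the 24, 7 were in the red cell list (Rhag, Add2, Ermap, Tspo2, Gata1, Car1 and Car2) and 17 were not. Trim10, a ubiquitin ligase of the tripartite motif family, shared the lowest adjusted p (0.0025) with Rhag, Atp1b2, Add2, Nxpe2 and Cldn13, and Ces2g, Slc38a5, Ctse, Blvrb and the long noncoding RNA Redrum were also called. Cldn13, a claudin, was at 86.1 and 65.8 CPM in the Jak2V617F libraries, against 55.0 and 22.9 CPM in the controls. Ctse, the aspartic protease cathepsin E, was at 264 and 182 CPM in the Jak2V617F libraries, against 187 and 75.9 CPM in the controls. Cldn13 did not overlap between groups, whereas for Ctse Jak2V617F replicate 2 was just below control replicate 1. In the same 6 libraries scaled to pan-blood genes edgeR called 0 genes, with 399 at an unadjusted p under 0.05, although the red cell median there was 1.33.

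HSC libraries of the same genotypes gave a second view from other libraries. The summed red cell list was at 20724 and 7413 CPM in Jak2V617F HSCs, against 6503 and 7203 CPM in control HSCs, and at 6666 and 6499 CPM in Jak2V617F MPPs, against 6783 and 2912 CPM in control MPPs. Jak2V617F HSC replicate 1, low in heart RNA at 0.925% of counts, stood far above every other one of these libraries. Jak2V617F HSC replicate 2, at 6.85% heart RNA, exceeded both low-heart control HSCs by little. The difference between the MPP and the HSC effect passed the edgeR test for 0 of 19616 genes, with 534 (2.72%) higher and 221 (1.13%) lower in MPPs at an unadjusted p under 0.05, while DESeq2 called 2 and limma-voom 0. The 2 DESeq2 calls were Chrnb1 and Scn2a, and 0 of the 20 red cell genes had an unadjusted p under 0.05 in edgeR, with a median difference of 0.05 on the log2 scale. A difference that did not pass does not show that the effects were alike.

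**Figure D3:**
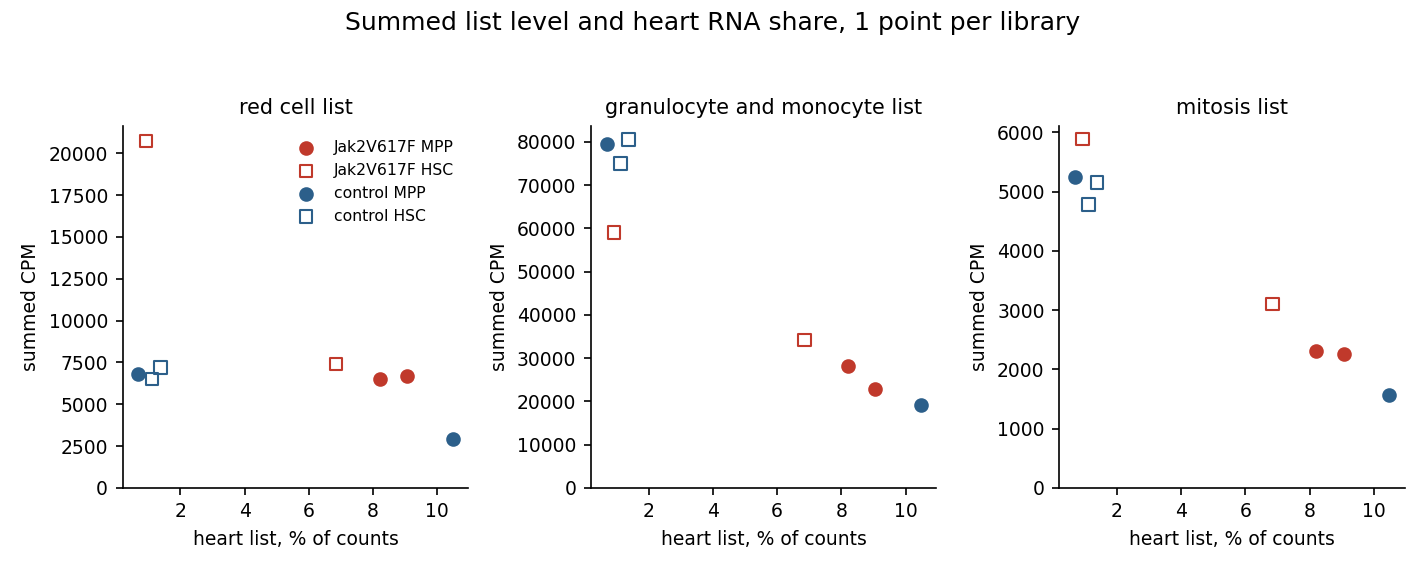
Each point is 1 library; the x axes give the percent of counts in the heart list and the y axes the summed CPM of the red cell, granulocyte and mitosis lists, with Jak2V617F in red, control in blue, MPP as filled circles and HSC as open squares. In the middle and right panels the 4 high-heart libraries lie below the 4 low-heart ones, whereas in the left panel both Jak2V617F MPP points lie near the low-heart control MPP and above the high-heart one.

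The genes with the lowest unadjusted p among those whose groups did not overlap on CPM were chosen by rule, 12 in each direction. Trim10 was at 15.7 and 10.5 CPM in the Jak2V617F libraries, against 5.36 and 2.16 CPM in the controls (log2 fold change 2.87, SE 0.66, edgeR unadjusted p = 0.00027, adjusted p = 1). Aldh1a1, which oxidises retinal to retinoic acid, was at 32.5 and 45.3 CPM in the Jak2V617F libraries, against 16.8 and 16.1 CPM in the controls (1.64, SE 0.38). Its control libraries were level in spite of their unlike heart RNA. Cyp26b1, the enzyme that degrades retinoic acid, was at 15.5 and 7.80 CPM in the Jak2V617F libraries, against 0.531 and 0.647 CPM in the controls (3.65, SE 1.08). Blvrb, which reduces flavins and biliverdin, was at 97.6 and 132 CPM in the Jak2V617F libraries, against 97.2 and 46.8 CPM in the controls (1.36, SE 0.34). For Blvrb the nearest libraries of the groups were almost level. Adgrd1, an adhesion G protein-coupled receptor, was at 11.1 and 14.2 CPM in the Jak2V617F libraries, against 0.820 and 2.26 CPM in the controls (2.81, SE 0.82). Gem, a small GTP-binding protein, was at 6.87 and 9.47 CPM in the Jak2V617F libraries, against 1.54 and 1.51 CPM in the controls (2.55, SE 0.74). Gem and Adgrd1 were well apart between groups on low counts. The other 6 were Isg20, an RNA exonuclease, Cox6b2, M1ap, the noncoding RNA Zfas1, Cercam and the adaptor Tifa, with log2 fold changes between 1.11 and 2.87.

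In the other direction, Ep300, a histone acetyltransferase, was at 31.7 and 34.8 CPM in the Jak2V617F libraries, against 51.8 and 71.0 CPM in the controls (log2 fold change -1.24, SE 0.39, edgeR unadjusted p = 0.0028, adjusted p = 1). Tiam1, an activator of the GTPase Rac, was at 11.3 and 15.8 CPM in the Jak2V617F libraries, against 47.3 and 28.5 CPM in the controls (-1.53, SE 0.50). Dock8, another activator of small GTPases, was at 24.3 and 23.0 CPM in the Jak2V617F libraries, against 59.9 and 36.2 CPM in the controls (-1.08, SE 0.44). For all 3 both Jak2V617F libraries were below both controls on CPM. Rescaled to pan-blood genes, Tiam1 stayed apart but Ep300 overlapped, at 50.8 and 49.9 in the Jak2V617F libraries against 26.6 and 139 in the controls, as did Dock8. Soat1, which esterifies cholesterol, was at 66.9 and 78.3 CPM in the Jak2V617F libraries, against 307 and 88.2 CPM in the controls (-1.04, SE 0.40), and most of its difference lay in control replicate 1. The other 8 were Tubb6, Paip2b, Cers6, Serpinf1, Dgkh, Zbtb21, Zfp518b and Nhsl2, with log2 fold changes between -1.94 and -0.99. After rescaling, 9 of these 12 lower genes overlapped between groups, and 0 of the 12 higher genes did. Rescaling moved all genes in that direction: 16% were higher and 8.47% lower on CPM, against 19.9% and 2.73% after it.

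**Figure D4:**
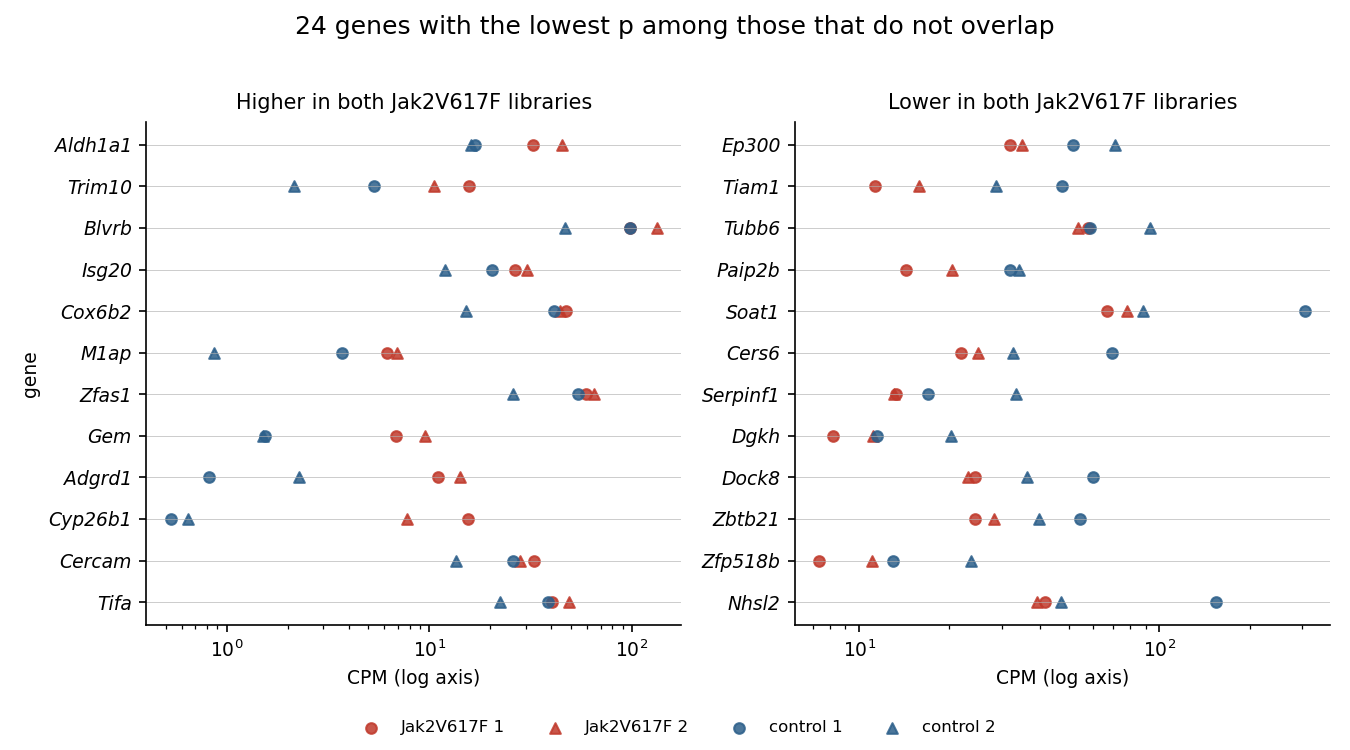
Each row is a gene and each point 1 library labelled MPP (Jak2V617F red, control blue, circles replicate 1, triangles replicate 2), with CPM on a log x axis. By the rule that chose them, no gene overlaps between groups; Gem, Adgrd1 and Cyp26b1 are the widest apart on the left, and for Blvrb and Tubb6 the nearest points almost touch.

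Genes of the kinase's pathway had fold changes above 0 less often than not, and 0 passed the test. A log2 fold change above 0 was found in 4 of 11 JAK and STAT genes, 4 of 17 cytokine receptor genes and 8 of 23 STAT5 target and feedback genes, beside 51.5% of all genes. The medians of these 3 lists were above 0 in 0, 1 and 1 of 17 alternative settings, which drew on the same libraries. Jak2 itself was at 37.9 and 47.2 CPM in the Jak2V617F libraries, against 57.3 and 46.3 CPM in the controls (log2 fold change -0.44, SE 0.40), so the groups overlapped. Gene counts do not show the V617F base and do not check the genotype. Jarid2, which is not a labelled target in either group, was at 55.9 and 69.1 CPM in the Jak2V617F libraries, against 62.7 and 53.7 CPM in the controls (0.24, SE 0.36). Of 11 JAK and STAT genes 0 passed and 0 had an unadjusted p under 0.05 in edgeR, with a median log2 fold change of -0.14. Stat5b, one of the STAT5 pair, was lower in both, at 67.3 and 63.4 CPM in the Jak2V617F libraries against 100.4 and 90.2 CPM in the controls, while Stat5a overlapped. Of 17 cytokine receptor genes 0 passed, with a median of -0.23. Csf3r, the receptor of the granulocyte factor G-CSF, was at 48.6 and 61.4 CPM in the Jak2V617F libraries, against 228 and 38.6 CPM in the controls. It was high in the library with little heart RNA alone.

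Of 23 genes that STAT5 switches on or that damp JAK signalling, 0 passed, 2 were higher (Pim2 and Socs1) and 1 lower (Bcl6) at an unadjusted p under 0.05, beside 2.28% and 0.698% of all genes, and the median log2 fold change was -0.25. Cish, a feedback inhibitor induced by STAT5, was at 41.9 and 32.3 CPM in the Jak2V617F libraries, against 14.4 and 30.4 CPM in the controls (0.70, SE 0.51). Socs2, another such inhibitor, was at 30.7 and 30.0 CPM in the Jak2V617F libraries, against 4.92 and 25.3 CPM in the controls (0.72, SE 0.50). For both the Jak2V617F libraries were above both controls, by little over the control with like heart RNA, and rescaled to pan-blood genes they overlapped. Pim2, a survival kinase, was at 5.86 and 3.90 CPM in the Jak2V617F libraries, against 2.07 and 0.324 CPM in the controls (2.59, SE 0.98). Bcl6, a repressor, was at 15.8 and 18.9 CPM in the Jak2V617F libraries, against 18.5 and 28.9 CPM in the controls (-1.61, SE 0.76). Pim1, a kinase often used as a STAT5 readout, was at 112 and 151 CPM in the Jak2V617F libraries, against 160 and 102 CPM in the controls, and overlapped.

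Among factors that set lineage choice, 30 genes gave 0 passes, 3 higher (Gata1, Klf1 and Gfi1b) and 1 lower (Gata2) at an unadjusted p under 0.05, beside 2.28% and 0.698% of all genes, and a median of -0.22. Gata2, the GATA factor of stem and early progenitor cells, was at 24.5 and 38.4 CPM in the Jak2V617F libraries, against 112 and 43.9 CPM in the controls (log2 fold change -0.86, SE 0.40). Its groups also did not overlap after rescaling, at 39.3 and 55.0 in the Jak2V617F libraries and 57.4 and 86.3 in the controls. Gata1 was thus higher and Gata2 lower in Jak2V617F per unit of blood RNA, neither of them past the test. Cebpa, the factor of granulocyte commitment, was at 6.20 and 11.5 CPM in the Jak2V617F libraries, against 16.4 and 13.5 CPM in the controls (-1.82, SE 0.90).

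Other lineages gave mixed or opposite values. Of 20 megakaryocyte and platelet genes 0 passed, the median was -0.17 and 3 were lower in both Jak2V617F libraries than in both controls (Plek, Clec1b and Treml1), beside 8.47% of all genes, and 0 were higher, beside 16%. Rescaled to pan-blood genes, 2 were higher and 3 lower, beside 19.9% and 2.73% of all genes. Gfi1b, given above, was the 1 gene higher at an unadjusted p under 0.05 in edgeR, beside 2.28% of all genes. Itga2b, the platelet integrin CD41, was at 21.4 and 16.8 CPM in the Jak2V617F libraries, against 89.1 and 11.3 CPM in the controls, and Pf4, a platelet chemokine, at 30.1 and 26.6 CPM, against 65.2 and 27.9 CPM. Both overlapped between groups. Granulocyte and monocyte genes had the lowest median of the 32 lists, -0.48, with 0 of 22 past the test. Both Jak2V617F libraries were above control replicate 2 in 15 of the 22 and below it in 2, beside 38.5% and 32.6% of all genes. Rescaled to pan-blood genes, 5 of the 22 were higher than both controls and 1 was lower, near the 19.9% and 2.73% of all genes. The sum of the granulocyte and monocyte genes was 22753 and 28152 CPM in the Jak2V617F libraries, against 79586 and 19077 CPM in the controls. It was thus above control replicate 2 in both Jak2V617F libraries although the fitted median was below 0. The fitted median of these genes was above 0 in 1 of 17 alternative settings, at 0.43 without control replicate 1, and was lowest without control replicate 2, at -1.54. Of 30 stem cell genes 0 passed, 19 had a log2 fold change above 0 (beside 51.5% of all genes) and the median was 0.12. Both Jak2V617F libraries were above control replicate 2 in 7 of the 30 and below it in 13, beside 38.5% and 32.6% of all genes. Rescaled to pan-blood genes, 2 of the 30 were higher than both controls and 1 was lower, beside 19.9% and 2.73%. Mllt3, which supports stem cell maintenance, was higher in both Jak2V617F libraries than in both controls before and after rescaling, at 55.2 and 49.4 CPM in the Jak2V617F libraries against 35.8 and 28.6 CPM in the controls (1.01, SE 0.33).

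Genes of cell division lay between the controls in sum and above control replicate 2. All 24 mitosis genes and 22 of 24 S phase genes exceeded control replicate 2 in both Jak2V617F libraries, beside 38.5% of all genes, with median log2 fold changes of 0.37 and 0.40. The summed mitosis list was at 2254 and 2313 CPM in the Jak2V617F libraries, against 5250 and 1567 CPM in the controls. Per unit of blood RNA, 12 of 24 mitosis genes and 13 of 24 S phase genes were higher in both Jak2V617F libraries than in both controls, beside 19.9% of all genes, and 0 were lower. In edgeR 0 passed in either list. B cell genes, of a lineage that depletion of mature cells usually removes, had a median of 0.80 over 12 genes. In edgeR 0 passed the test and 1 was higher at an unadjusted p under 0.05, beside 2.28% of all genes. That gene, Vpreb1, a part of the surrogate light chain of early B cells, was at 13.0 and 6.41 CPM in the Jak2V617F libraries, against 3.81 and 3.02 CPM in the controls (2.17, SE 0.79). The summed B cell list was 246 and 222 CPM in the Jak2V617F libraries, against 236 and 169 CPM in the controls. The part of other cell types in the red cell values was not tested.

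**Figure D5:**
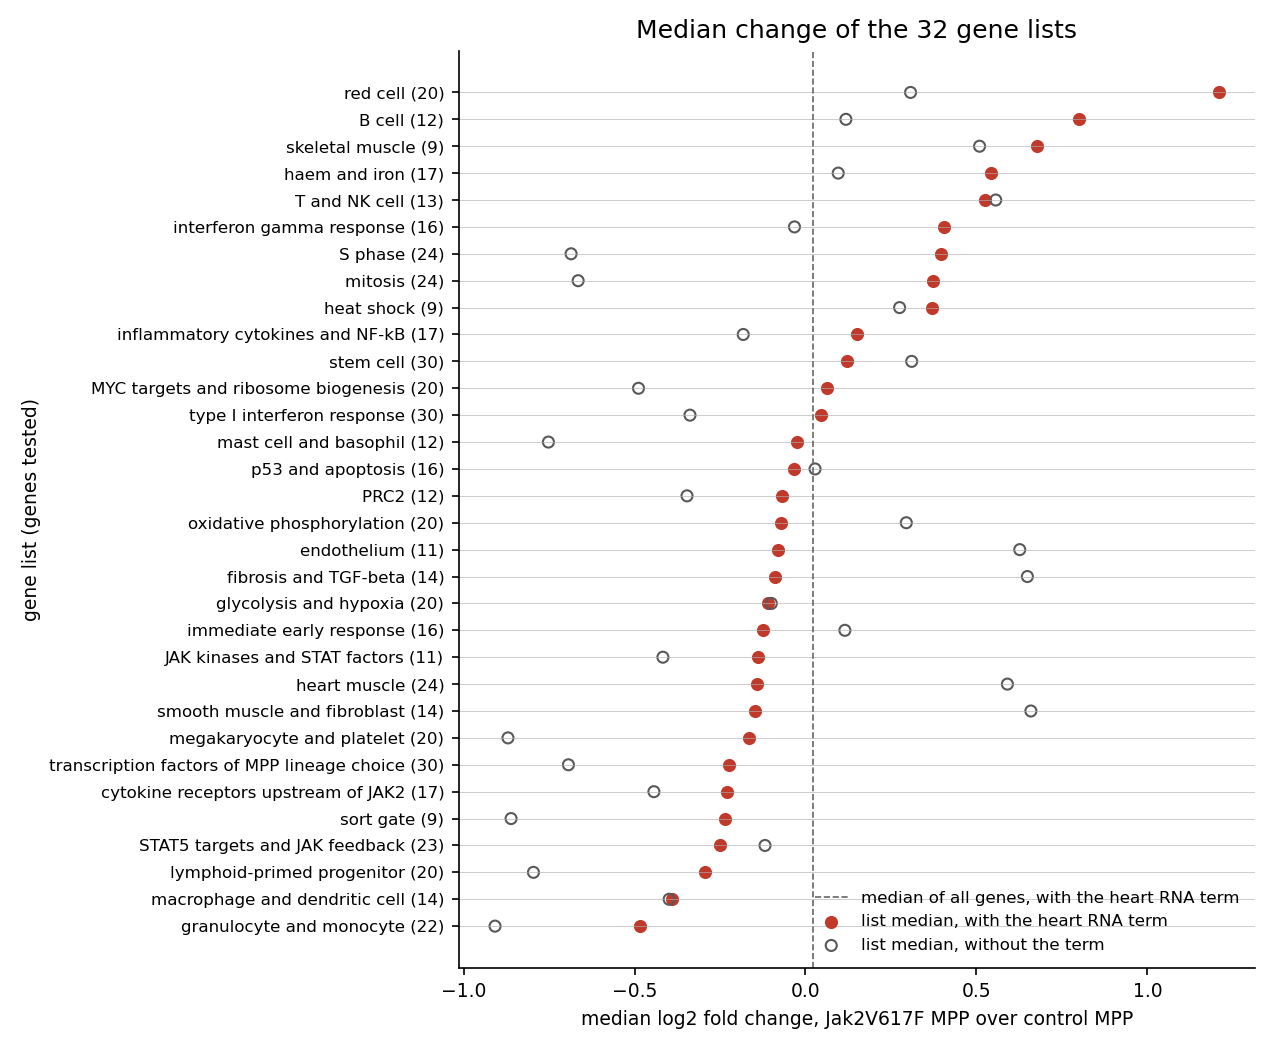
Each row is a gene list with its number of genes tested; the x axis gives the list's median log2 fold change of Jak2V617F MPP over control MPP, with the heart RNA term (filled) and without it (open), and the dashed line is the median of all genes. The red cell list is highest with the term, at 1.21, and the heart muscle list lies at -0.14 with the term and 0.59 without it.

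Interferon genes matter here because pIpC induces interferon and the Mx1 promoter responds to it. Of 30 type I interferon genes 0 passed and 0 had an unadjusted p under 0.05, with a median log2 fold change of 0.05. Mx1 itself, the antiviral gene whose promoter drives the Cre, was at 4.69 and 5.95 CPM in the Jak2V617F libraries, against 0.290 and 2.26 CPM in the controls. Ifit1, a classic induced gene, was at 18.0 and 13.8 CPM in the Jak2V617F libraries, against 11.0 and 8.09 CPM in the controls, and Ifit2 at 29.3 and 29.4 CPM, against 49.3 and 43.9 CPM. Ifit1 and Ifit2 thus lay on opposite sides of their controls. Of 16 interferon gamma genes 0 passed and the median was 0.41.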

How the data were processed

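RNA was measured in pools of sorted mouse marrow cells with the SMARTer Ultra Low kit from 3 to 5 ng of RNA, per the labels' protocols. Those protocols describe pools of 5 male and 5 female mice and, elsewhere, of 3 and 3. The submitters' processing notes name build mm10 and, with no role given, the tools featureCounts 1.4.5, STAR 2.0.4, Partek 6.6, HTSeq 0.8.0 and Subread. The authors' tables give, per the file headers, raw counts, CPM and RPKM for each gene and library. CPM divides by the library's total and RPKM also by gene length; both deposited columns were recomputed from the deposited counts, and tests used the counts. The setting for strand is not given in the sources used here, so overlapping antisense genes cannot be told apart.

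The 12 Mx1 libraries (7852483 to 20724168 counts, 6 groups of 2) were fitted on the counts in edgeR 4.0.16 under R 4.3.3, with filterByExpr (minimum count 10, minimum total 15), TMM scaling, a robust quasi-likelihood F test and Benjamini-Hochberg adjustment over 19616 genes at 0.05. The fit as labelled had 6 residual degrees of freedom and the fit with the heart term 5. The SE is that of the log2 fold change. Pan-blood scaling divides CPM by the median ratio of 41 genes to their mean over libraries; 1 of them is in the sort gate list, 1 in the lymphoid list, 1 in the STAT5 list and 5 in the lineage factor list. DESeq2 1.42.0 and limma 3.58.1 were alternatives. The scripts were tested on simulated data. The libraries, the 32 lists and the heart term were chosen with earlier results of these data known, and the pan-blood scaling was added after seeing the data.

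Genes were named by rule: Jak2 and Jarid2, genes past the test, then up to 12 in each direction by lowest unadjusted p, with a mean log2 CPM of at least 2 and no overlap between groups, without Xist, Y-linked, predicted or small RNA genes, and the first 4 tested members of each list. Of the last, only those that add to the account are printed, some genes are not reported here, and other members were named after their values were seen. Same-numbered libraries were not paired.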

Additional observations from a re-analysis of the deposited data

Results flagged for a closer look

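The 65 genes checked were Jak2, Jarid2, the genes of lowest unadjusted p named above, those called in the 6 MPP libraries and others picked for the text. Of these, 1 had groups that did not overlap in either cell type but lay in opposite directions. Alas2 was at 11.1 and 16.2 CPM in Jak2V617F MPPs, against 0.772 and 5.93 CPM in control MPPs, and at 23.4 and 5.13 CPM in Jak2V617F HSCs, against 27.6 and 38.9 CPM in control HSCs. The MPP effect minus the HSC effect was 3.27 on the log2 scale (SE 1.71) and did not pass edgeR's quasi-likelihood test (unadjusted p = 0.108, adjusted p = 1). Jak2V617F HSC replicate 2 and control MPP replicate 2 are both high in heart RNA, and the part of heart RNA in this difference was not tested.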

How the results depend on the processing

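In the comparison as labelled, the count of 0 genes held in every alternative run except with no filter on low counts, which called 2 (Bmp8b and Tcrg-C1); leaving out each library in turn gave 0 to 0. Within the heart level the count was 0 with DESeq2 size factors, the stricter filter of 20 counts, the DESeq2 test, removal of muscle genes, a continuous heart term, a threshold of 1%, no term and pan-blood scaling. It was 7 with no filter (5 of them among the 24 called in the 6 MPP libraries), 2 with limma-voom and 24 in the 6 MPP libraries. Leaving out a library gave 2 to 141: 2 without control replicate 1 (Pheta2 and Tcrg-C1), 141 without control replicate 2 (53 higher and 88 lower, 5 of them among the 24), 3 without Jak2V617F replicate 1 (Bmp8b, Ptger3 and Gm12185) and 2 without Jak2V617F replicate 2 (Trim10 and Serpina3f). When 1 library of a group was left out, the other was assumed to vary like the other groups. For the difference between MPP and HSC the count of 0 became 6 with no filter and 2 with DESeq2. The replicate block gave 0 calls in all 3 comparisons, and same-numbered libraries deviated with a correlation of -0.06, so the numbers do not pair them.

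The red cell median stayed above 0 in all 17 alternatives, between 0.31 (no heart term) and 1.55 (limma-voom), and the haem and iron median between 0.10 and 0.90. All but the run with no heart term kept such a term, and all drew on the same libraries. The 17 alternatives are thus not separate tests of the direction. Of 1105 gene values under the alternatives, 7 turned round. Without the heart term these were Gata1 (-0.19), Gfi1b (-0.22), Car1 (-0.062), Jarid2 (-0.030) and Epor (-0.00044). The other 2 were Igkv14-126, at 1.20 with limma-voom; leaving out a library took it between -4.37 and 4.80, the positive value without control replicate 2. Pan-blood scaling moved the median of all genes as labelled to 0.33, against -0.02 with TMM.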

Other observations

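A few genes, chosen after their values were seen, were uneven within a group. Socs1, a JAK inhibitor that interferon induces, was at 6.70 and 0.186 CPM in the Jak2V617F libraries and had no counts in either control. Igkv14-126, an antibody light chain segment, was at 1.76 and 3.81 CPM in the Jak2V617F libraries, against 0.145 and 55.8 CPM in the controls. Jchain, which joins antibody chains in plasma cells, was at 5.44 and 24.9 CPM in the Jak2V617F libraries, against 0.241 and 49.5 CPM in the controls. Both antibody genes were thus highest in control replicate 2.

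Heat shock genes, which were not described above, had a median log2 fold change of 0.37 over 9 genes. In edgeR's quasi-likelihood test 0 passed and 1 was higher at an unadjusted p under 0.05, beside 2.28% of all genes. That gene, Hspe1, a mitochondrial chaperone, was at 64.0 and 71.6 CPM in the Jak2V617F libraries, against 34.1 and 44.1 CPM in the controls, and its groups did not overlap before or after rescaling to pan-blood genes.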
